A study of Mus musculus with 6 samples.

Results

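The cytosolic ribosome is built from a large subunit and a small subunit, and each of its proteins is encoded by a gene named Rpl or Rps. These genes were taken from the annotation by name: protein-coding genes of the mouse genome whose symbols start with Rpl or Rps, without the 10 Rps6k genes, which encode kinases. The rule gave 91 of 21887 protein-coding genes on chromosomes 1 to 19, X and Y. They comprised 43 genes of the large subunit, 31 of the small subunit and 3 of the P stalk (Rplp0, Rplp1 and Rplp2, which form the flexible arm that recruits elongation factors). The name rule also took in 12 paralogs and copies of such genes, and 2 genes whose products are not ribosomal proteins: Rps19bp1, a binding protein of Rps19, and Rps23rg1, a retrogene of Rps23. The other 77 are called the canonical genes here. The 91 genes lay on 19 chromosomes, with 4 on the X chromosome (Rpl39, Rpl10, Rps4x and Rpl36a), and their median length was 3175 bp against 17169 bp over all protein-coding genes.

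Open chromatin was measured by ATAC-seq, in which the Tn5 transposase inserts sequencing adapters where DNA is accessible, in CGR8, a line of mouse embryonic stem cells. There were 6 samples in groups called mito, LM and eG1-1, each of 2 replicates. All came from untreated cells of a line called Cdt1-MD, grown in N2B27 medium with 3 µM CHIR99021 (a GSK3 inhibitor), 1 µM PD184352 (a MEK inhibitor) and leukemia inhibitory factor, so the groups share line, medium and inhibitors. The title of the series speaks of genome reactivation in pluripotent cells as they leave mitosis. The labels spell out neither the group names nor MD, and the peaks of both LM lists are named Telo. They do not say whether replicates were separate cultures, so the spread between replicates may be technical.

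Each sample had 1 list of peaks, of 24598 and 30446 peaks for mito, 23867 and 20639 for LM and 32101 and 48396 for eG1-1 (replicates 1 and 2). A gene is said to be held by a list where a peak overlaps 1 kb either side of its annotated start or end. The score of a gene is that of its highest such peak, a value set by the authors that ranks peaks within a list. Read counts were not part of the lists, so depth is unknown, and a gene that is not held is one at which no peak was called. The peak names carry the number 1088 in replicate 1 of every group and 1106 in replicate 2. What these numbers mark is not stated, and any batch they mark cannot be told apart from replicate. LM replicate 2 stood apart as the shortest list, with a median peak width of 336 bp against 459 bp in LM replicate 1, and values of LM are therefore given for each replicate. Of 12 pluripotency genes, 11 and 9 were held by the mito lists, 5 and 3 by the LM lists and 3 and 8 by the eG1-1 lists. Pou5f1, the gene of OCT4, had scores of 48 and 75 in mito, 49 in LM replicate 1 and 43 in eG1-1 replicate 2, and Zfp42 was held by all 6 lists, while Esrrb was held by none. Of 12 genes of fibroblasts and other cell types, 1 to 4 were held per list, and Col1a1 was held by all 6. A peak at a gene end is not a measure of its transcription.

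Ribosomal protein genes are transcribed by RNA polymerase II at high rates in growing cells, and most of their products are needed in equal amounts. In mammals they are single genes scattered over the genome, many of them host small nucleolar RNAs in their introns, and processed copies are common. Their messages start with a run of pyrimidines, the TOP sequence, which links their translation to growth signals. Their promoters usually lack a TATA box and often carry sites for ETS family factors such as GABP, for SP1 or for YY1.

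The stretches printed next show the DNA at the annotated 5′ ends of 10 of these genes, chosen because their peak patterns span the range seen in the lists. Each runs from 100 bases before to 20 bases after the annotated start, on the strand of the gene, from RefSeq on GRCm38.p6, the assembly that mm10 stands for. Capitals mark the letters CCGGAAG on either strand, which ETS factors bind, and CTTTCC on the strand of the gene near the start, which fits a TOP sequence. The 5′ ends of Rps21 (chr2:180257279-180257398, plus strand), Rps25 (chr9:44407614-44407733, plus), Rpl15 (chr14:18270967-18271086, minus), Rpl13a (chr7:45128726-45128845, minus) and Rps3 (chr7:99483690-99483809, minus) had a peak within 1 kb in all 6 lists. For Rpl15 the peak of LM replicate 2 was centred 1138 bp after the start and did not reach the stretch shown.
Rps21: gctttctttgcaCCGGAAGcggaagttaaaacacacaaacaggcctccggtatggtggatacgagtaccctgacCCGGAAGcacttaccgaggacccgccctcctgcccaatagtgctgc
Rps25: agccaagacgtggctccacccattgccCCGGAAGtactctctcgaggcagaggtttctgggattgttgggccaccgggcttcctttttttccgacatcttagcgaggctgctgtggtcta
Rpl15: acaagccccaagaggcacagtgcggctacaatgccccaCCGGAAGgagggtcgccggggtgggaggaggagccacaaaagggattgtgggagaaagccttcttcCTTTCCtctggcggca
Rpl13a: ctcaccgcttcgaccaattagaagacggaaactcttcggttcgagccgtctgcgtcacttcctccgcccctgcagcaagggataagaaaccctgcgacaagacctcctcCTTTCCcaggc
Rps3: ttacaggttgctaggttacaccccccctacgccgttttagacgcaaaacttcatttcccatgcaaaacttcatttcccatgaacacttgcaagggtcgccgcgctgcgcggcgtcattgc

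The 5′ ends of Rpl31 (chr1:39367751-39367870, plus strand), Rpl35 (chr2:39005112-39005231, minus) and Rpl26 (chr11:68901466-68901585, plus) had a peak in both mito lists but in neither eG1-1 list. That of the paralog Rpl39l (chr16:10170097-10170216, plus) had one in both eG1-1 lists and in no other, and that of Rps4x (chrX:102189372-102189491, minus) in no list.
Rpl31: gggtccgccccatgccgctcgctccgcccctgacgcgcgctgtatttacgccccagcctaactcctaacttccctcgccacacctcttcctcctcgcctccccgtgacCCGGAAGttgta
Rpl35: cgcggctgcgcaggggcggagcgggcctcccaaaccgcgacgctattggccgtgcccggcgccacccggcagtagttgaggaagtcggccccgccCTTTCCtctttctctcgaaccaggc
Rpl26: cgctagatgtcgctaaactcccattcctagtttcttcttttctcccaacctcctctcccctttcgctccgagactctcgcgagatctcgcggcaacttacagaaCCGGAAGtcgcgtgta
Rpl39l: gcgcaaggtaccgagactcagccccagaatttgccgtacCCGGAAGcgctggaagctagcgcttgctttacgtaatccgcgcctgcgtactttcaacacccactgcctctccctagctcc
Rps4x: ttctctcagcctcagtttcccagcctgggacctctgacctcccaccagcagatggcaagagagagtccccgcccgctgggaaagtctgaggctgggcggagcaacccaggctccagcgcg

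Ribosomal protein genes were held more often than protein-coding genes at large in every list, and most often in the mito lists. The mito lists held 69 and 77 of the 91 genes (75.8% and 84.6%), the LM lists 67 and 41 (73.6% and 45.1%), those of eG1-1 52 and 65 (57.1% and 71.4%). The group means were 80.2% ± 6.22 for mito, 59.3% ± 20.2 for LM and 64.3% ± 10.1 for eG1-1 (SD, n = 2). Both mito values lay above both LM values and both eG1-1 values, while LM and eG1-1 overlapped. Within each replicate number mito was also the highest. Over all protein-coding genes the means were 48.5% ± 2.74, 41.6% ± 8.26 and 47.4% ± 7.5 (SD, n = 2), and the highest single list was eG1-1 replicate 2 at 52.7%.

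The margin over all genes was therefore widest in mito. Ribosomal protein genes exceeded all genes by 29.3 and 34.2 percentage points in the mito lists and by 15.1 and 18.7 in the eG1-1 lists. In LM the margin was 26.2 points in replicate 1 and 9.34 in replicate 2, so LM replicate 1 lay near mito and LM replicate 2 below eG1-1. With 2 lists against 2 no test was made of these differences, and the counts of pluripotency genes given above were also highest in mito. Their part in the result was not tested.

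**Figure D1:**
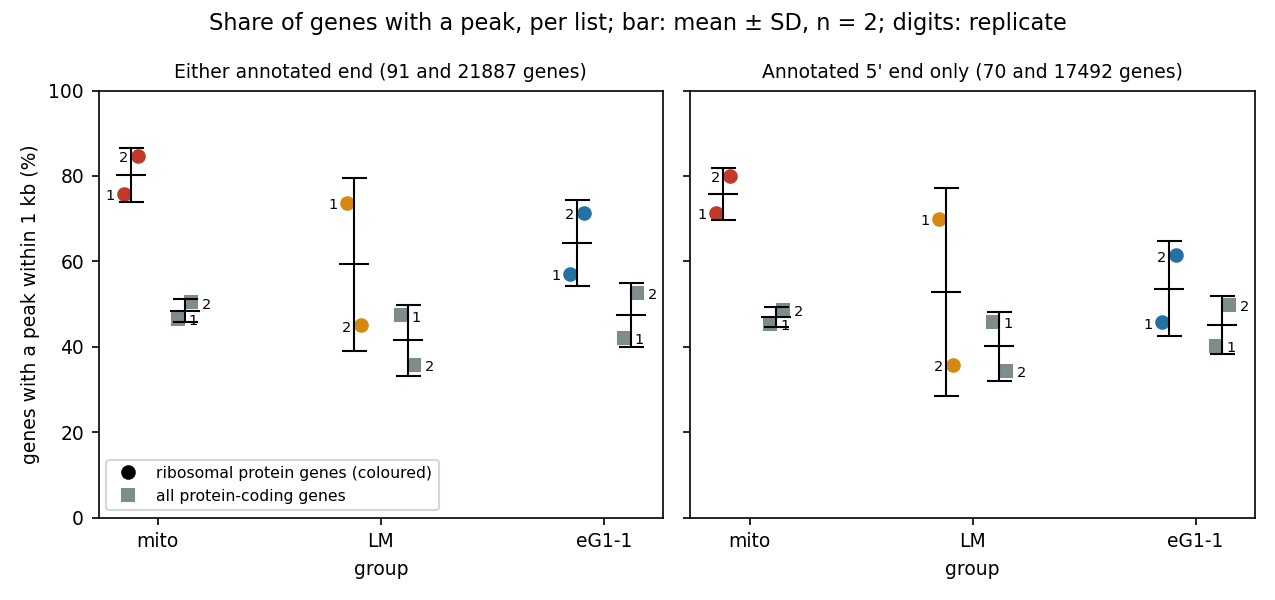
Share of genes with a peak within 1 kb, in percent, per list, at either annotated end (left) and at the annotated 5′ end only (right); coloured circles are ribosomal protein genes, grey squares all protein-coding genes, digits give the replicate, and bars the mean ± SD of 2 lists. Ribosomal protein genes lie at 75.8% and 84.6% in mito, above both other groups, and LM replicate 2 lies lowest at 45.1%.

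Mito had the highest mean in both subunits, at 86% ± 6.58 of the large-subunit and 80.6% ± 9.12 of the small-subunit genes (SD, n = 2). Of the 43 large-subunit genes, 35 and 39 were held by the mito lists, 32 and 20 by the LM lists and 24 and 32 by the eG1-1 lists. For the 31 small-subunit genes the counts were 23 and 27, 24 and 15, and 19 and 23. In the small subunit LM replicate 1 thus held 1 gene more than mito replicate 1, and mito replicate 1 and eG1-1 replicate 2 held the same number. The 3 P stalk genes were held by both mito lists, by LM replicate 1 and by eG1-1 replicate 1, and LM replicate 2 held only Rplp0, with a score of 43, and eG1-1 replicate 2 all but Rplp0. Paralogs and copies were held less often, with 7 and 6 of 12 in mito, 6 and 3 in LM, with 4 and 6 in eG1-1. Their means were 54.2%, 37.5% and 41.7%, against 48.5%, 41.6% and 47.4% of all protein-coding genes. The 77 canonical genes alone gave 84.4% ± 7.35, 61.7% ± 21.1 and 66.9% ± 10.1 (SD, n = 2).

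Where the peaks lay could be read for 70 of the 91 genes and 17492 of all genes, for which the RefSeq promoter table gave the strand. At the 5′ end, where transcription starts, the mito lists held 50 and 56 of the 70 (71.4% and 80.0%), the LM lists 49 and 25 (70.0% and 35.7%), those of eG1-1 32 and 43 (45.7% and 61.4%). The margin over all genes at the 5′ end was 26.1 and 31.4 points in mito, 24.1 and 1.29 in LM, with 5.40 and 11.6 in eG1-1. At the 5′ end LM replicate 2 thus held ribosomal protein genes about as often as protein-coding genes at large, at 34.4%. Peaks at the 3′ end were held at 12 and 19 of the 70 genes in mito, 9 and 10 in LM, with 11 and 18 in eG1-1, which is 12.9% to 27.1%, against 4.21% to 9.24% of all genes. These genes are short, and 17 of the 91 were at most 2 kb long. A 3′ window of 1 kb can reach a neighbouring gene or, in a short gene, a peak at its own 5′ end. Genes with a peak at the 3′ end and none at the 5′ end numbered 3 and 4 in mito, 2 and 7 in LM, with 7 and 6 in eG1-1.

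The 5′ peaks were not centred on the annotated start but before it. The median distance from the start to the peak centre was −123 and −179 bp in mito, −123 and −186 bp in LM, with −179 and −157 bp in eG1-1, where negative values lie upstream. Over all genes with a 5′ peak the medians lay between −46 and 29.5 bp. Of the held ribosomal protein genes, 39 of 50 and 47 of 56 had the centre upstream in mito, 37 of 49 and 22 of 25 in LM, with 29 of 32 and 36 of 43 in eG1-1, from 75.5% to 90.6%, against 45.2% to 57.4% over all genes. The peaks were also narrower, with median widths of 485 and 568 bp in mito, 513 and 350 bp in LM, with 344 and 328 bp in eG1-1, against 597 and 645, 601 and 400, and 431 and 544 bp over all genes. Coverage by peaks was highest 75 to 225 bp upstream, where it reached 64.3% and 74.3% of the 70 genes in mito, 62.9% and 28.6% in LM, with 37.1% and 54.3% in eG1-1.

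**Figure D2:**
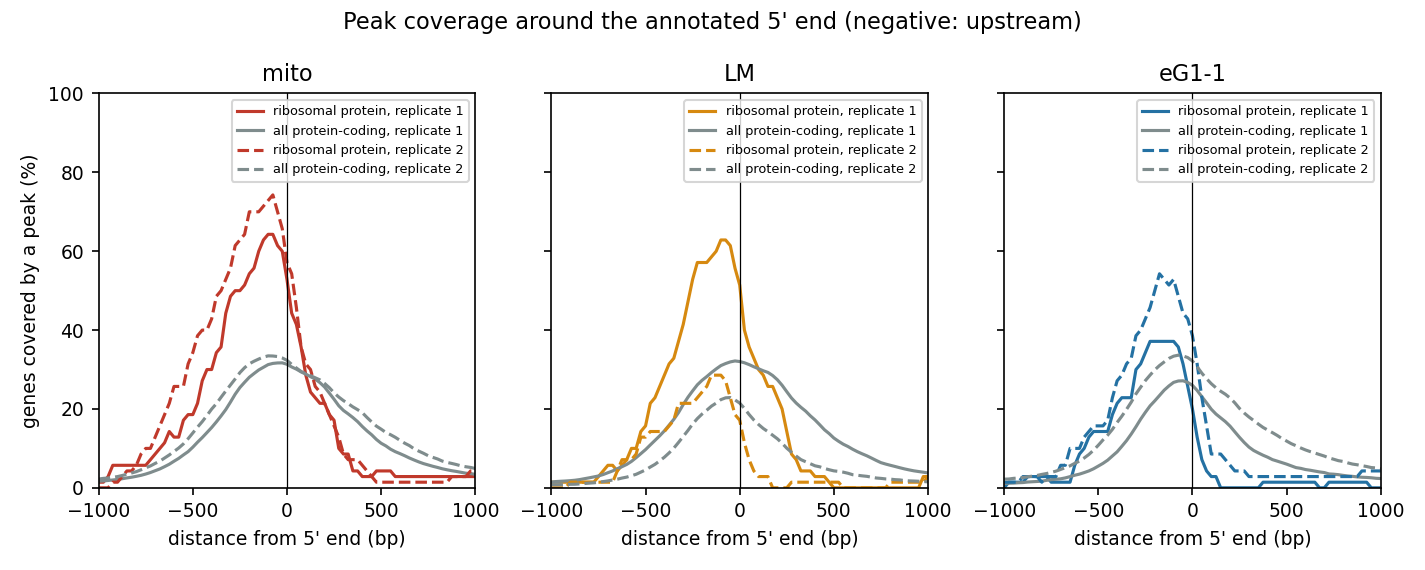
Share of genes covered by a peak, in percent, at each distance in bp from the annotated 5′ end (negative values are upstream) for 70 ribosomal protein genes (coloured) and 17492 protein-coding genes (grey), with replicate 1 as solid and replicate 2 as dashed lines. The coloured curves are higher and lie upstream of the start, with maxima of 64.3% and 74.3% in mito and 28.6% in LM replicate 2, and they fall faster than the grey curves past the start.

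All 6 lists held 28 of the 91 genes, against 27.8% of all protein-coding genes, so that share (30.8%) was near the background. No list held 7 of them, against 38.6% of all genes. The gap lay in the intermediate classes: 21 ribosomal protein genes (23.1%) were held by 5 lists and 13 (14.3%) by 4, where all genes reached 9.45% and 6.69%. Among genes held by 1 to 5 lists, the most frequent patterns took 10 genes each. One set was missing from LM replicate 2 only (among them Rps3a1, Rpl27a, Rplp1, Rplp2, Rps23 and Rps24), and the other from LM replicate 2 and eG1-1 replicate 1 (among them Rpl34, Rpl5, Rpl21, Rps9, Rpl23 and Rps7). Over all genes these patterns took 4.98% and 2.56%. Without LM replicate 2, the remaining 5 lists all held 38 of the 91, against 32.8% of all genes.

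**Figure D3:**
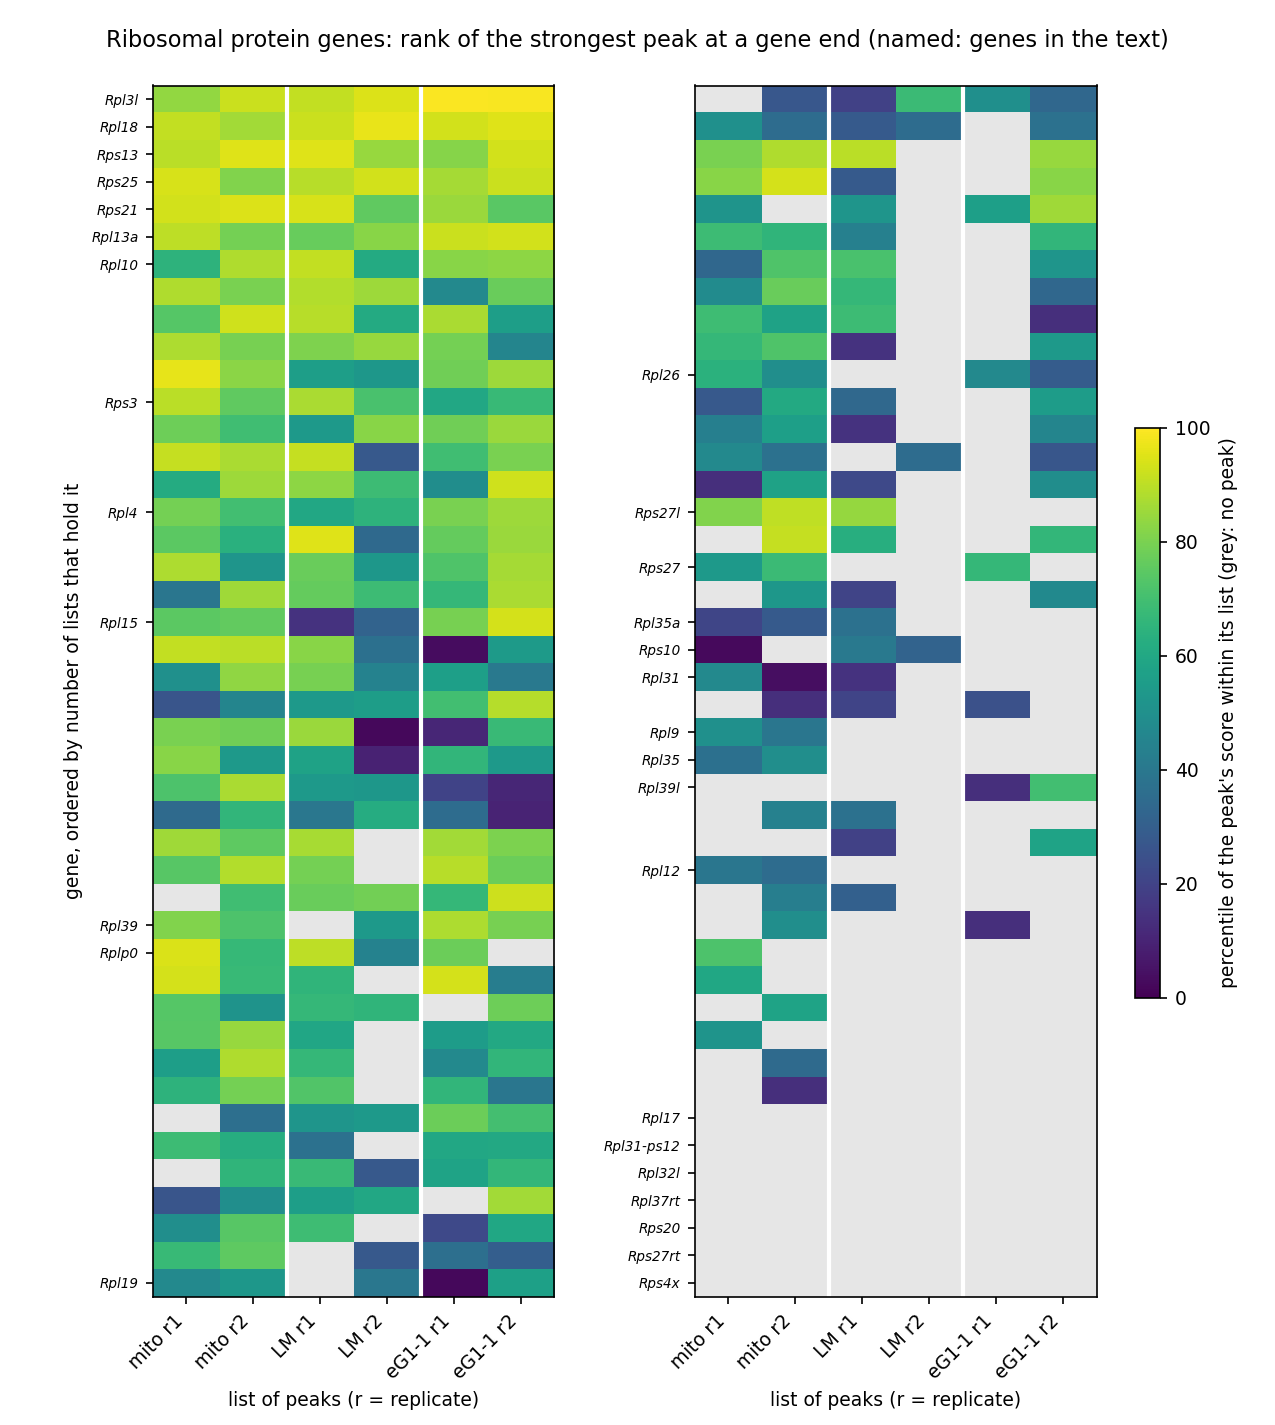
Percentile of the score of the strongest peak at each gene within its list (colour; grey where no peak was called) for ribosomal protein genes in rows, named where the text describes them and ordered by how many lists hold them, and the 6 lists in columns. The top rows have a peak in every list, the LM replicate 2 column has the most grey cells, and the bottom 7 rows have no peak.

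At the top of this range were genes with strong peaks in every list. Rpl18, of the large subunit, had scores of 145 and 130 in mito, 156 and 183 in LM, with 151 and 223 in eG1-1. It ranked high in every list. Rps13, of the small subunit, had scores of 135 and 193 in mito, 191 and 98 in LM, with 95 and 192 in eG1-1. Rps25, of the small subunit, had 172 and 113, 138 and 141, and 111 and 182, and its peaks also lay within 1 kb of an end of Trappc4. Rps21, whose promoter carries the ETS letters at 2 places in the stretch shown, had 163 and 190 in mito, 176 and 77 in LM, with 104 and 95 in eG1-1. The lists differ in length, so scores are not compared between them. Rpl13a, whose stretch holds CTTTCC just after the annotated start and which has 4 small nucleolar RNA genes inside it, had 140 and 107, 91 and 92, and 141 and 194. Rpl10, on the X chromosome, had 70 and 139, 148 and 57, and 96 and 123. Rps3, whose stretch holds neither motif, had 135 and 99, 126 and 70, and 58 and 81. Also among the 10 genes with the highest lowest percentile were Rpl3l and Rpl4, and in most lists their strongest peaks were not at their own start.

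Rpl3l (chr17:24727826-24736143, plus strand), a paralog of Rpl3 known from muscle, had scores of 111 and 163 in mito, 147 and 155 in LM, with 326 and 415 in eG1-1. These were the highest scores of any ribosomal protein gene in both eG1-1 lists. All 6 peaks, however, overlapped the 1 kb window at the 3′ end together with an end of Msrb1, and no list had a peak at the 5′ end of Rpl3l. Rpl4 (chr9:64173387-64178562, plus strand), which hosts 5 small nucleolar RNA genes, the most of the 91, had 97 and 87 in mito, 63 and 61 in LM, with 89 and 134 in eG1-1. The strongest peak lay past its 3′ end near Snapc5 in every list but mito replicate 2. At the 5′ end of Rpl4 a peak was called in both mito lists (55 and 87) and in LM replicate 1 (44), and in none of the others.

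The calls between groups were few, and most were of genes held in mito. A gene was called where both lists of one group held it and neither list of the other did, with no test. Held by both mito lists but neither LM list were 5 of 91 genes (5.49%; 2.17% of all genes): Rpl12, Rpl35, Rps27, Rpl9 and Rpl26. Leaving out a list raises such counts over all genes as well. Without LM replicate 2 the count was 9 (3.42% of all genes), and without LM replicate 1 it was 28 (11.2%). Without mito replicate 1 it was 9 (5.21%), and without mito replicate 2 it was 8 (3.54%). Held by both mito lists but neither eG1-1 list were 6 genes (6.59%; 1.97% of all genes): Rpl31, Rpl12, Rpl35, Rpl9, Rps27l and Rpl35a. Without eG1-1 replicate 2 that count was 20 (7.88% of all genes), without mito replicate 1 it was 11 (3.72%) and without mito replicate 2 it was 10 (3.14%).

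In the opposite direction, no gene was held by both LM lists and neither mito list (0.356% of all genes), and 1, Rpl39l, by both eG1-1 lists and neither mito list (1.61%). With mito replicate 2 left out, these counts were 4 (1.63% of all genes) and 5 (4.24%), and with mito replicate 1 left out they were 1 (0.905%) and 2 (2.61%). The LM count was 1 when LM replicate 2 was left out (2.29%), and the eG1-1 count was 2 when its replicate 1 was (5.44%). Held by both LM lists and neither eG1-1 list was 1 gene, Rps10 (0.48%), and by both eG1-1 lists and neither LM list 2, Rpl26 and Rpl39l (2.35%). For Rps10's comparison the count was 6 without LM replicate 2 (3.27% of all genes). It was 4 when eG1-1 replicate 2 was left out (3.29%) and 2 when replicate 1 was (0.832%). For that of Rpl26 it was 13 without LM replicate 1 (8.83%), 5 without LM replicate 2 (3.83%) and 4 without eG1-1 replicate 2 (3.43%).

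Rpl12, Rpl35 and Rpl9, all of the large subunit, were held by the mito lists alone. Rpl12 (chr2:32961712-32964045, plus strand), a protein at the base of the P stalk, had scores of 46 and 46. Its peaks lay 182 and 127 bp before the start, where the end of Lrsam1 also lies within 1 kb. Rpl35 (chr2:39001581-39005131, minus strand), which lies near the exit of the peptide tunnel, had 44 and 59, at 196 and 360 bp before the start with no other gene end in reach. Rpl9 (chr5:65388364-65391431, minus strand) had 55 and 50, and its peaks were shared with the end of Lias. These 6 peaks ranked between the percentiles 35.4 and 50.4 of their lists, below or about the middle.

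Rpl31, Rps27l and Rpl35a were held by both mito lists and by LM replicate 1. Rpl31 (chr1:39367851-39371911, plus strand) had scores of 52 and 22 in mito and 28 in LM replicate 1. The peak of 22 ranked at the percentile 3.65, near the lowest score called. Rpl35a (chr16:33056453-33060189, plus strand) had 33 and 41 in mito and 43 in LM replicate 1, with the end of Iqcg in reach. Rps27l (chr9:66944624-66949522, plus strand), a paralog of Rps27 known as a target of p53, had 102 and 152 in mito and 113 in LM replicate 1, between the percentiles 81.0 and 90.3. Rps27l was the strongest of the genes called in any comparison, and the peak centres lay 1412 to 1427.5 bp inside the annotated 5′ end, near the start that the promoter table gives.

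Rps27 and Rpl26 were held by mito and not by LM. Rps27 (chr3:90212667-90213648, minus strand), a zinc finger protein of the small subunit, had 58 and 84 in mito and 66 in eG1-1 replicate 1, in a stretch shared with Rab13, and none in the other 3 lists. Rpl26 (chr11:68901566-68904534, plus strand), known to bind the message of p53, had 69 and 59 in mito and 46 and 39 in eG1-1. The sites differed. In mito the centres lay 165 and 230 bp before the start, and in eG1-1 they lay 3561 and 3278.5 bp after it, past the 3′ end. At its 5′ end Rpl26 was thus held by the mito lists alone.

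Rps10 (chr17:27630415-27635244, minus strand), of the small subunit, had 19 in mito replicate 1 and 45 and 35 in LM. The LM peaks were not at 1 place: that of replicate 1 lay 225 bp before the start, and that of replicate 2 lay 5333.5 bp after it, past the 3′ end. Rpl39l (chr16:10170197-10174911, plus strand), a paralog of Rpl39 best known from the testis, had 26 and 85 in eG1-1, at its start in both, and no peak in mito or LM. Its parent gene Rpl39 had 102 and 91 in mito, 50 in LM replicate 2 and 116 and 110 in eG1-1.

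The calls were also made at the 5′ end alone. Held by both mito lists but neither LM list were the same 5 of the 70 genes (2.05% of all genes). Held by both mito lists but neither eG1-1 list were 8 (11.4%, against 2.01%), with Rpl4 and Rpl26 added to the 6 above. No gene was held at the 5′ end by both LM lists and neither mito list (0.314%) or neither eG1-1 list (0.434%). Rpl39l and Rpl19 were held at the 5′ end by both eG1-1 lists and by neither mito list (1.31%) nor LM list (2.05%). The peaks of Rpl19 (chr11:98022003-98030493, plus strand), with scores of 17 and 65, lay 824 and 1051 bp after the annotated start and overlapped the window of Cacnb1. All 6 lists held 17 of the 70 at the 5′ end (27.1% of all genes), and no list held 8 (41.8%). Those 17 included Rps19 and Rpl11, which are mutated in Diamond-Blackfan anaemia, Rpl22 and its paralog Rpl22l1, and Rps13, Rps21 and Rps25.

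Genes held by both mito lists were followed into the other lists. There were 64 such ribosomal protein genes and 9428 such genes in all. LM held 85.9% and 56.3% of the 64, against 92.1% and 73.9% of all genes. The eG1-1 lists held 68.8% and 87.5% of the 64, against 81.7% and 93.1%. These genes were chosen in mito, where the set was held most often, so these shares are a description and show no difference of their own. At the 5′ end, with 47 such ribosomal protein genes and 7348 in all, the shares were 83.0% and 51.1% in LM, with 59.6% and 76.6% in eG1-1, against 92.5%, 73.7%, 81.8% and 92.6%.

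Weak peaks were less often held by another list than strong ones, so the 64 genes were also parted by the lower of their 2 mito percentiles. Of the 21 genes below the percentile 50, LM held 15 and 7 and eG1-1 held 8 and 16. That is 71.4%, 33.3%, 38.1% and 76.2%, against 80.7%, 47.3%, 62.2% and 85.0% of all genes in that range. Of the 25 genes from 50 to below 75, LM held 22 and 15 and eG1-1 21 and 23, and here eG1-1 replicate 1 held 84.0% against 83.6% of all genes. Of the 18 genes at 75 and above, LM held 18 and 14 and eG1-1 15 and 17, which is 100%, 77.8%, 83.3% and 94.4% against 99.5%, 94.6%, 96.3% and 99.0%. With so few genes in a range, each one moves a share by several points. Chosen instead by both eG1-1 lists, 48 ribosomal protein genes were held at 89.6% and 95.8% by mito and at 89.6% and 72.9% by LM, against 89.3%, 93.4%, 90.3% and 77.6% of 8629 genes. Chosen by both LM lists, 37 were held at 89.2% and 97.3% by mito and at 89.2% and 94.6% by eG1-1, against 95.0%, 97.2%, 90% and 97.5% of 7169 genes. From these directions the set was above all genes in some lists and below them in others.

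**Figure D4:**
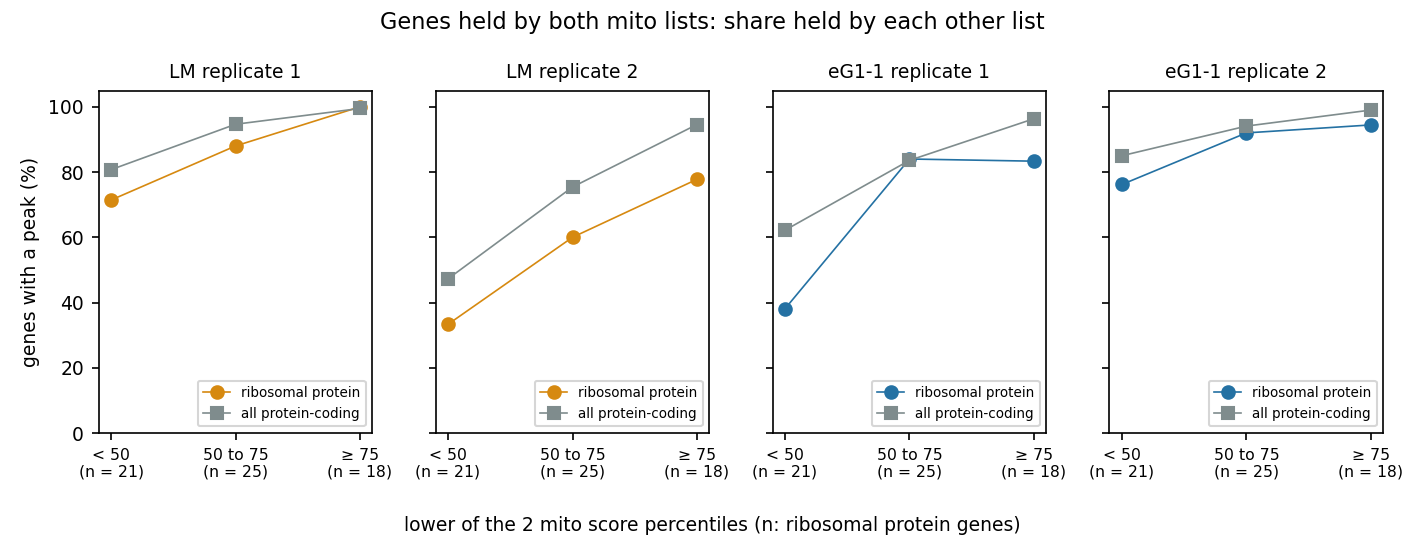
Of genes with a peak in both mito lists, the share in percent that also had one in each LM and eG1-1 list, by the lower of the 2 mito score percentiles; coloured circles are ribosomal protein genes (21, 25 and 18 genes), grey squares all protein-coding genes. The circles lie below the squares in most panels, widest at 38.1% against 62.2% in eG1-1 replicate 1 below the percentile 50, and level with them at 84.0% against 83.6% in the middle range of that list.

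The peaks at ribosomal protein genes ranked, at the median, below those of all genes held. The median percentile of the score was 69.0 and 69.4 in mito, 66.7 and 60.0 in LM, with 66.5 and 66.4 in eG1-1, against 70.7 and 73.2, 70.7 and 70.0, and 71.9 and 75.3 over all genes held. At or above the percentile 90 of their list were 10 and 8 of the held ribosomal protein genes in mito, 9 and 4 in LM, with 5 and 9 in eG1-1. That is 9.62% to 14.5% of those held, against 21.1% to 27.4% of all genes held. The set was thus held often but was less often among the strongest peaks.

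Since a longer list holds more genes, the shares were also taken over the 20639 strongest peaks of each list. Then the mito lists held 67 and 71 of the 91, the LM lists 66 and 41, those of eG1-1 43 and 41. The means were 75.8% ± 3.11, 58.8% ± 19.4 and 46.2% ± 1.55 (SD, n = 2), against 43.6%, 40.3% and 35.2% of all genes. At equal length 16 genes were held by both mito lists but neither eG1-1 list, among them Rpl22, Rpl5 and Rps7, against 5.35% of all genes. None was held the other way, against 0.809% of all genes. Mito stayed above eG1-1 in both replicates, and LM replicate 2 lay with eG1-1.

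The 7 genes held by no list were Rps20, Rpl17 and Rps4x of the canonical genes, and the copies Rpl37rt, Rps27rt, Rpl32l and Rpl31-ps12. For Rps20, of the small subunit, the nearest peaks lay 12306 to 35172 bp from the gene. For Rps4x, the X-linked small-subunit gene, they lay 3706 to 27772 bp away. Rpl17, a protein at the exit of the peptide tunnel, had a peak inside the gene in all 6 lists, with scores of 24 and 26 in mito, 56 and 53 in LM, with 43 and 38 in eG1-1. It lay over 1 kb from either annotated end, so the rule did not count it. Rpl37rt also had a peak inside the gene in both eG1-1 lists, with scores of 43 and 40. A retrotransposed copy shares sequence with its parent, and how reads that map to several places were treated is not given in the sources used here.

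Fau and Rack1 encode proteins of the small subunit but fall outside the name rule. Fau (chr19:6057947-6059524), which encodes a ubiquitin-like protein fused to a small-subunit protein, had 40 and 49 in mito and 78 in eG1-1 replicate 2. Rack1 (chr11:48800360-48806241), a scaffold on the small subunit, had 71 and 125 in mito, 48 in LM replicate 2 and 71 and 85 in eG1-1.

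The promoters shared sequence features that the rule did not use. The letters were searched in the RefSeq promoter table, from 250 bases before to 50 bases after the start nearest the annotated 5′ end, on both strands, in 70 ribosomal protein genes and 17492 genes in all, each motif counted whether or not it overlapped another. CCGGAAG, the core bound by ETS factors, was in 25 of the 70 (35.7%) and in 11.9% of all. AAGATGG, the core of YY1 sites, was in 10 (14.3%) against 6.35%, and GCGCATG, the core of NRF1 sites, in 7 (10.0%) against 4.88%. GGGCGG, for SP1, was in 40 (57.1%) against 46.3%. TATAAA was in 9 (12.9%) against 13.3%, and CCAAT, for NFY, in 22 (31.4%) against 39.2%. On the strand of the gene and within 15 bases of the start, CTTTCC or CTTTTC was in 14 (20%) against 2.19% of all genes. That start was a C in 24 (34.3%) against 13.7%, and TOP messages start with a C.

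Within the set, genes with and without the ETS letters were held at the 5′ end at shares that overlapped. Of the 25, the mito lists held 17 and 19, the LM lists 17 and 6, those of eG1-1 13 and 15, which is 72.0% ± 5.66, 46% ± 31.1 and 56.0% ± 5.66 (SD, n = 2). The 45 without had 77.8% ± 6.29, 56.7% ± 20.4 and 52.2% ± 14.1. Over all genes the 2084 with the letters were held far more often than the 15408 without, with means of 77.2%, 67.2% and 72.1% against 42.9%, 36.5% and 41.4%. Of the 14 genes with CTTTCC or CTTTTC at the start, the mito lists held 11 and 8, the LM lists 7 and 3, those of eG1-1 6 and 6. The 56 without were held at 39 and 48, 42 and 22, and 26 and 37. Means in mito, LM and eG1-1 were 67.9%, 35.7% and 42.9% for the 14, against 49.2%, 40.9% and 46.0% of all genes with these letters. For the 56 they were 77.7%, 57.1% and 56.25%, against 46.9%, 40.1% and 45.1% of all genes without them.

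Other properties of gene structure also stood out from all genes. Small nucleolar RNA genes, which guide the modification of ribosomal RNA, lay inside 30 of the 91 (33.0%), 59 in all, against 1.70% of all protein-coding genes. In mito, LM and eG1-1 the 30 hosts were held at 85.0% ± 7.07, 63.3% ± 28.3 and 70.0% ± 14.1, and the 61 others at 77.9% ± 5.80, 57.4% ± 16.2 and 61.5% ± 8.11 (SD, n = 2), which overlap. An end of another protein-coding gene lay within 1 kb of an end of 32 (35.2%), against 24.8% of all. In the same order these 32 were held at 87.5% ± 8.84, 68.8% ± 17.7 and 65.6% ± 8.84, and the 59 others at 76.3% ± 4.79, 54.2% ± 21.6 and 63.6% ± 10.8 (SD, n = 2). In mito both values of the 32 lay above both of the 59. Between 11 and 20 of the genes held per list had their peak in reach of another gene's end too, and such a peak cannot be given to either gene alone.

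Other genes of protein synthesis were compared by counts. Of all protein-coding genes, the mito lists held 46.6% and 50.4%, the LM lists 47.4% and 35.7%, those of eG1-1 42.1% and 52.7%. All 6 lists held 27.8%. Both mito lists but neither LM list held 2.17%, and both mito lists but neither eG1-1 list 1.97%. Both LM lists but neither eG1-1 list held 0.48%. Of 10 genes of translation elongation and other TOP messages, 9 and 10 were held in mito, 10 and 6 in LM, with 7 and 8 in eG1-1. Eef2, which moves the ribosome along the message, had scores of 252 and 239, 114 and 169, and 131 and 368. Btf3, part of the complex that meets the growing chain at the ribosome, had 50 and 41 in mito and 44 in LM replicate 1, and was the only one of the 10 held by both mito lists but neither eG1-1 list. Of 29 ribosome assembly genes, 26 and 28 were held in mito, 26 and 26 in LM, with 23 and 26 in eG1-1, and 21 were held by all 6 lists. LM replicate 2 thus held as many assembly genes as LM replicate 1, unlike the ribosomal protein genes. Gnl3, a nucleolar GTPase, had 121 and 47 in mito only, and Gar1, a protein of box H/ACA particles, had 79 and 66 in mito, 70 and 31 in LM and none in eG1-1. Of 10 genes of RNA polymerase I and its factors, 7 and 7 were held in mito, 7 and 8 in LM, with 6 and 8 in eG1-1. Polr1c had 36 and 50, 45 and 60, and none in eG1-1.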

How the data were processed

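ATAC-seq was measured in 6 samples, and each had 1 deposited list of peaks with chromosome, start, end, name and score. Per the submitters' processing notes, the tools were MACS2 2.2.4, STAR 2.7.0e, SAMtools 1.10, deepTools 3.5.1, bedtools and Picard, with mm10 and GRCm38. Not given in the sources used here are their settings, any shift of read ends for Tn5 and the calling threshold. Peaks were called per sample on read pairs, per the peak names, which also carry a number that goes with the replicate. The number of cells is not settled, since titles and protocol differ. The score is the authors' whole-number value, at least 13 in each list, and was used only to rank peaks within a list.

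Genes came from a RefSeq table on GRCm38.p6, and strands and promoters from its promoter table, which matched 70 of the 91 genes. Counting used Python 3.11.15, pandas 2.3.3 and numpy 2.4.6, and the lookup was tested on simulated data. Peaks and genes had no minimum score or length. The members and gene lists were chosen with earlier results of these data known, so no test was made. Counts of the calls between groups stand beside the share of all protein-coding genes. Counts for subunits, for most other classes of the set and for marker genes are given without it. Named with scores were genes held by both lists of one group and neither of another, the 10 with the highest lowest percentile, those held by none, and Fau and Rack1; some genes that this rule names are not reported here. Other genes named were chosen after their values were seen. Of the pathway lists, 1 of 30 assembly genes and 3 of 13 RNA polymerase I genes were unmatched. Alternatives were windows of 500 bp and 2 kb, a score of at least 50, lists of equal length, the 5′ end alone, canonical genes alone and each list left out. Any RefSeq start in place of the annotated 5′ end was added after seeing the data.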

Additional observations from a re-analysis of the deposited data

How the results depend on the processing

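The counts are small and no read depth is known, so a call rests on whether 1 list passed the caller's threshold. No paired analysis was possible because the results are counts and shares with no test, which leaves no fit to pair. The lists can be matched by replicate number, and the main shares are given for each replicate. Whether replicates of the same number belong together is not stated. The group share stayed highest in mito under each alternative. With a score of at least 50 the shares were 67.6% for mito, 39.0% for LM and 47.8% for eG1-1, 13 genes were held by all 6 lists (17.9% of all genes), 11 by mito and not LM (2.99%), 1 by LM and not mito (0.228%) and 0 by LM and not eG1-1 (0.352%). At equal list length the eG1-1 share was 46.2%. There 16 genes were held by mito and not eG1-1 (5.35% of all genes) and 2 by LM and not mito (0.749%). Held by LM and not eG1-1 were 5 (2.69%), by eG1-1 and not mito 0 (0.809%) and by eG1-1 and not LM 1 (0.74%). At the annotated 5′ end alone the eG1-1 share was 53.6%, and 17 genes were held by all lists (27.1% of all genes). Held by LM and not eG1-1 were 0 (0.434%), and by eG1-1 and not mito 2 (1.31%). With any RefSeq start, an alternative chosen after seeing the data, the eG1-1 share was also 53.6%. The count for LM and not eG1-1 was 2 in a window of 500 bp (0.562% of all genes) and 0 in one of 2 kb (0.452%). With canonical genes alone, 0 were held by eG1-1 and not mito (1.61% of all genes) and 1 by eG1-1 and not LM (2.35%). The causes were not tested. Leaving out each list in turn gave 28 to 38 genes held by all remaining lists (28.1% to 32.8% of all genes). The count was 8 to 28 for mito and not LM (3.42% to 11.2%) and 8 to 20 for mito and not eG1-1 (2.97% to 7.88%). For LM and not mito it was 0 to 4 (0.905% to 2.29%), and for LM and not eG1-1 1 to 6 (0.832% to 3.29%). For eG1-1 and not mito it was 1 to 5 (2.51% to 5.44%), and for eG1-1 and not LM 2 to 13 (3.43% to 8.83%). The shares then ranged from 75.8% to 84.6% for mito, 45.1% to 73.6% for LM and 57.1% to 71.4% for eG1-1.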
